A study of Mus musculus with 5 samples.

Results

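The genes described here are those of the tricarboxylic acid (TCA) cycle, of the entry of pyruvate into it and of the use of glutamine as its carbon source. They were chosen by symbol, and 35 of the 36 listed genes had an array feature naming that gene alone, out of 22180 genes in all. Mpc2, a subunit of the mitochondrial pyruvate carrier, was not analysed here. Hematopoietic stem and progenitor cells taken from C57BL/6 mice spent 24 h in culture with all-trans retinoic acid (ATRA) at 5 µM, the ligand of the retinoic acid receptors, or with DMSO as control. Hematopoietic stem cells (HSCs) were sorted out by flow cytometry at the end. RNA was measured on 5 arrays, 3 for DMSO and 2 for ATRA, in a study of vitamin A and HSC dormancy. The mice carried no stated modification, and the sources used here do not give their age and sex, the markers of the sort or any pooling of animals. Nothing in the labels ties the replicates to separate cultures or animals. The p-values therefore reflect the scatter among these 5 arrays alone, and that scatter may be technical.

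The TCA cycle oxidises acetyl-CoA in the mitochondrial matrix and passes the electrons to the respiratory chain. Pyruvate from glycolysis enters through the pyruvate carrier and the pyruvate dehydrogenase complex, which pyruvate dehydrogenase kinases switch off by phosphorylation. Glutamine enters as glutamate and then oxoglutarate. Quiescent HSCs are known for leaning on glycolysis, with pyruvate dehydrogenase kinases holding pyruvate out of the mitochondria, and for raising mitochondrial oxidation when they are activated.

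Values are log2 expression as deposited, so a difference of 1 is a 2-fold change. Values on the ATRA arrays were compressed. Their SD over the array was 1.77 and 1.49 in ATRA replicates 1 and 2, against 1.96 to 1.97 in DMSO, and features bright in DMSO tended to be lower in both ATRA arrays. Whether the deposited columns were normalized together is not known, which limits what a difference between ATRA and DMSO values means. Of 10 HSC markers listed, 8 were measured, with DMSO means from 7.71 to 10.94, among them the stem cell factor receptor gene Kit (10.94). Their summed level, on the log2 scale, was 12.79 to 12.87 in DMSO and 11.54 and 10.01 in ATRA replicates 1 and 2. That of 4 genes active in every cell type, Actb, Gapdh, Tbp and Hprt, was 12.45 to 12.51 in DMSO and 11.17 and 10.77 in ATRA, and their median log2 fold change was -1.68, against -1.80 for the HSC markers. The summed level of 8 granulocyte and monocyte markers was 9.01 to 9.39 in DMSO and 9.70 and 9.15 in ATRA, that of 7 lymphoid markers 8.75 to 8.85 and 9.05 and 9.42, that of 3 megakaryocyte markers 10.62 to 11.11 and 10.76 and 9.93, and that of 2 erythroid markers 8.01 to 8.37 and 7.19 and 8.12. The array gives no zero for an absent transcript, and the part of other cells in the results was not tested. In sorted bulk RNA, fewer cells of a type and less RNA per cell cannot be told apart.

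Promoter windows of 31 measured genes were found in RefSeq (GRCm38.p6), 250 bases before to 50 after a start, 40 windows in all. Their median GC content was 61.2%, against 52.7% over 32851 windows of all genes. The GC box GGGCGG, searched on both strands, was in a window of 21 of the 31 genes (67.7%), against 38.2% of 27025 genes with a window. The E-box CACGTG was in 4 (12.9%, against 8.09%), namely Ogdh, Pcx, Pdk2 and Slc25a1. The ETS motif CCGGAAGT was in 1 (Dlst, 3.23%, against 4.31%). The textbook retinoic acid response element, a direct repeat of AGGTCA with 5 bases between the copies, was in 0 of 31 and in 3 of all 27025 genes (0.0111%). A match describes letters only. No window was found for Idh3a. Mpc1 has a further window, with the bases before its start at chr17:8284204-8284453, which is not shown. The 250 bases before the start are shown for Mpc1, the gene with the largest fall in the feature read, for Suclg1, which stood above genes of its level, and for Dlst, which holds the ETS match at position 1 after its start. They lie at chr17:8283537-8283786, chr6:73248255-73248504 and chr12:85110583-85110832, all on the plus strand, and capitals mark the GC box on either strand, with 1 match in these bases for Mpc1, 0 for Suclg1 and 1 for Dlst.
Mpc1: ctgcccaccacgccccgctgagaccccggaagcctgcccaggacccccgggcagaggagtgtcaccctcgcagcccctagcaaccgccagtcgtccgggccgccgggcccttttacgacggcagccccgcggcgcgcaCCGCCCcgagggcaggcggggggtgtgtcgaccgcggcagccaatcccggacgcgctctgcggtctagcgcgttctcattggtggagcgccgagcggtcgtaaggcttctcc
Suclg1: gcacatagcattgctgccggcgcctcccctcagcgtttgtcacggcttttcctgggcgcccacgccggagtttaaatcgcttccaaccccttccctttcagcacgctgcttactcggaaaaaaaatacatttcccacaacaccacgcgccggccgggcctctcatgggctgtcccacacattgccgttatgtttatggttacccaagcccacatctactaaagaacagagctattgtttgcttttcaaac
Dlst: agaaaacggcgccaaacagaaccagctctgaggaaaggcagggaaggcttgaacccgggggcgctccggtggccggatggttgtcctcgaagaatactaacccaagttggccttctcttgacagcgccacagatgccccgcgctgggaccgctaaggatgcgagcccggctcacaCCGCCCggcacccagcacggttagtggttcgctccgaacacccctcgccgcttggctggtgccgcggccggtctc

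With ATRA, 17 of the 35 genes fell, 0 rose and 18 did not pass (limma, Benjamini-Hochberg adjusted p under 0.05 over all genes). The background in the same fit was 15.5% of all genes lower and 6.48% higher. The median log2 fold change of the 35 was -1.54, a 2.90-fold lower value, against 0.16 over all genes. It was -0.77 in ATRA replicate 1 and -2.00 in ATRA replicate 2. Both ATRA values lay below all 3 DMSO values in 28 of the 35, and above them in 0, where 29.2% and 33.0% of all genes did so. The 7 genes whose groups overlapped were Suclg1, Sdhc, Sdhd, Dlat, Pdk2, Pdk4 and Pcx. Without ATRA replicate 1 the median of the 35 was -2.00 and without ATRA replicate 2 it was -0.77. Such a fit assumes that the lone ATRA array varies like the DMSO arrays. Without DMSO replicate 1, 2 or 3 the count of falls was 0 in limma, as for all 22180 genes, so each call in this fit rests on all 3 DMSO arrays. The genes of the 35 lower at an unadjusted p under 0.05 then numbered 19, 18 and 20, against 24 with all arrays, and 0 were higher. Of all 22180 genes, 3837, 3941 and 3898 were lower at that p, against 5103 with all arrays. Those higher numbered 2154, 2124 and 2009, against 3832.

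**Figure D1:**
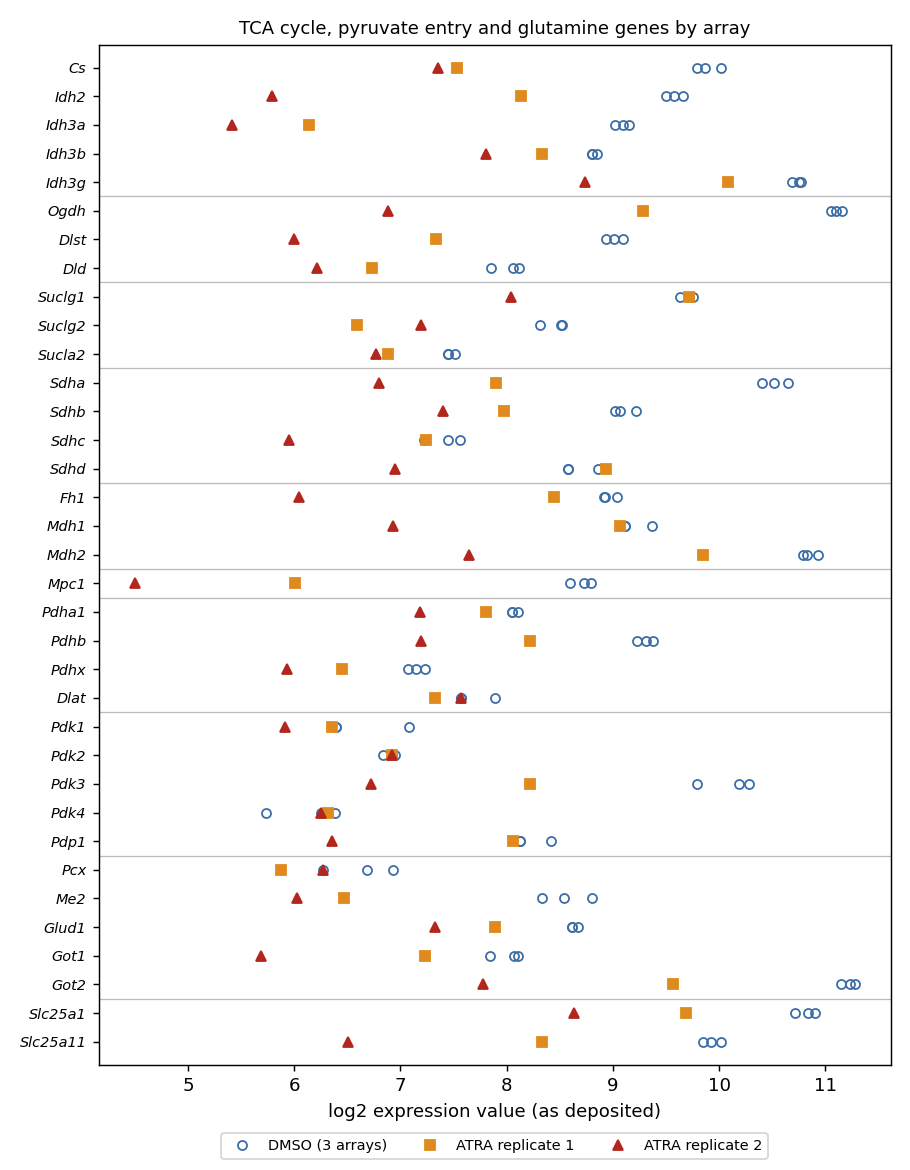
Log2 expression value of the 35 genes on each array, in rows grouped by role. Open circles are the 3 DMSO arrays, squares ATRA replicate 1 and triangles ATRA replicate 2. The ATRA points lie to the left of all circles in 28 genes, and the 2 ATRA arrays often lie far apart, as for Idh2 (8.14 and 5.80).

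The genes were bright features, with DMSO means from 6.12 to 11.22 (median 8.82, against 6.20 over all genes). Over the whole array brightness went with the difference, except among the brightest genes. In the class of 2582 genes whose DMSO mean was 8 to 9, which held 11 of the 35, the median gene differed by -0.97 in ATRA replicate 1 and by -1.73 in replicate 2. In the class from 9 to 10, which held 9 of the 35, it differed by -1.36 and -2.55. From 11 to 12 (133 genes, 2 of the 35) it differed by -1.07 and -3.55, and above 12 (46 genes) by -0.11 and -2.32. A fit was therefore also made with this trend removed. It subtracted from each array the smooth curve of its difference from the DMSO mean over all genes. The curve did not turn back at the top and was at -1.82 and -4.49 for a DMSO mean of 12. For Ogdh and Got2, the 2 genes from 11 to 12, it lay below the median gene of that class. Their values relative to the curve are therefore higher than against that median. In that fit 2 of the 35 genes were lower (Idh3a and Mpc1), 1 was higher (Suclg1) and 32 did not pass, against 1.01% of all genes lower and 2.28% higher. The median of the 35 shrank to -0.11, with 20 of 35 below 0, against 0.02 and 47.9% over all genes. Here 14 genes (against 30.2% of all genes) lay below the DMSO mean in both ATRA arrays, 14 above it in both (against 30.5%), and 7 on opposite sides. After cyclic loess normalization, another way to level the arrays, 9 of the 35 were lower and 1 higher (6.78% and 3.48% of all genes), and the same 3 genes were among them. The 9 lower genes were Idh3a, Mpc1, Ogdh, Dlst, Dld, Sdha, Pdk3, Me2 and Slc25a11, and the higher gene was Suclg1. These last 2 fits were not repeated with an array left out.

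**Figure D2:**
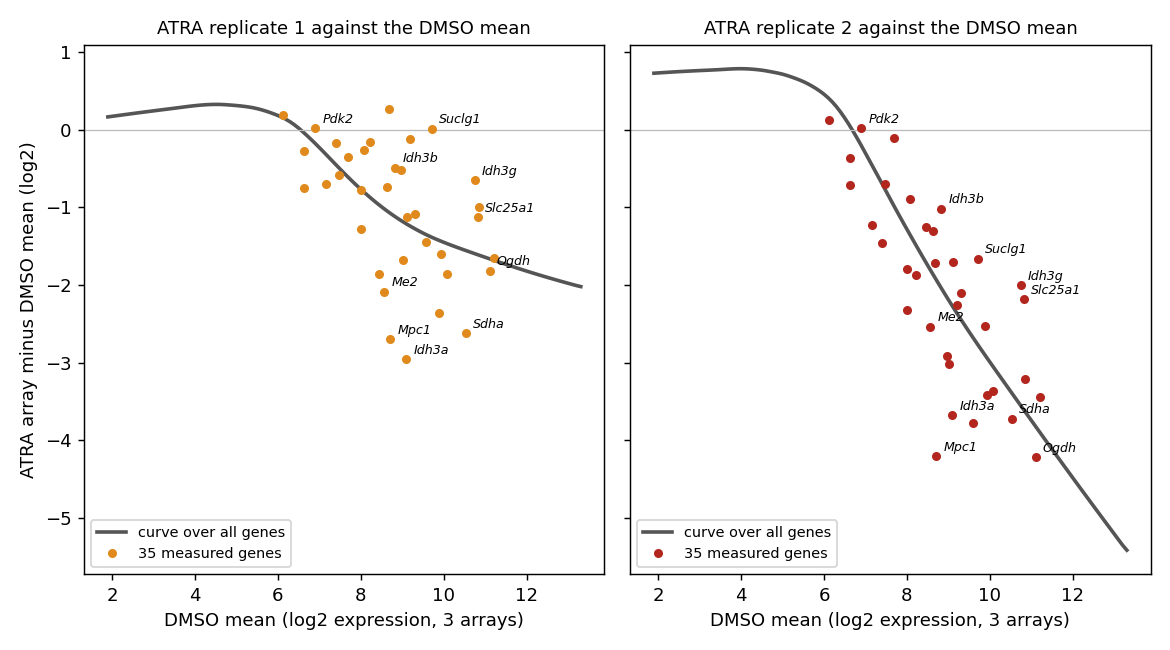
Difference of each ATRA array from the DMSO mean (log2) against the DMSO mean, for ATRA replicate 1 on the left and replicate 2 on the right. Points are the 35 genes and the line is the smooth curve over all 22180 genes. Mpc1 and Idh3a lie under the curve and Suclg1, Idh3g and Slc25a1 above it in both panels.

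Citrate synthase and the isocitrate dehydrogenases make citrate and turn it into oxoglutarate. Of these 5 genes, 2 fell and 3 did not pass, and all 5 had both ATRA values below every DMSO value. Cs, the citrate synthase that opens the cycle, was at 10.02, 9.79 and 9.86 in DMSO and at 7.53 and 7.36 in ATRA. The ATRA arrays agreed closely here, and Cs fell by 2.45 (SE 0.14, adjusted p = 0.00627), which is 5.45-fold lower. Its difference with the trend taken out was -0.28 (adjusted p = 0.698), with the ATRA arrays on opposite sides at -0.93 and 0.37. Idh2, the NADP-dependent mitochondrial isocitrate dehydrogenase, was at 9.50, 9.66 and 9.58 in DMSO and at 8.14 and 5.80 in ATRA. Both were lower, but the gap between the ATRA arrays was wide and the difference of -2.61 (SE 0.72, adjusted p = 0.0671) did not pass. Idh2 passed with arrays centred on their median (adjusted p = 0.0462).

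Idh3a, Idh3b and Idh3g encode the catalytic and the regulatory subunits of the NAD-dependent isocitrate dehydrogenase, and only Idh3a passed the threshold. Idh3a, the catalytic subunit, was at 9.16, 9.02 and 9.10 in DMSO and at 6.13 and 5.41 in ATRA. It fell by 3.32 (SE 0.25, adjusted p = 0.00697), 9.97-fold, and by 1.58 with the level trend removed (SE 0.16, adjusted p = 0.0192). Idh3b was at 8.81, 8.85 and 8.81 in DMSO and at 8.33 and 7.80 in ATRA, a difference of -0.75 (SE 0.19, adjusted p = 0.0566). Idh3g was at 10.69, 10.77 and 10.75 and then at 10.09 and 8.73, a difference of -1.33 (SE 0.42, adjusted p = 0.0906). Neither regulatory subunit passed, though Idh3b did with arrays centred on their median (adjusted p = 0.0299) and with dim features left out (adjusted p = 0.0473). Against genes of their own level both stood higher, by 0.82 (adjusted p = 0.0707) and 1.24 (adjusted p = 0.0507), which did not pass either. The difference Idh3a minus Idh3b within an array was 0.17 to 0.35 in DMSO and -2.20 and -2.39 in ATRA, a shift of -2.56. Idh3a minus Idh3g shifted by -1.99. Each shift reached an exact two-sided permutation p of 0.1, the smallest that 3 against 2 arrays allow. In all, 29 such pairs of related genes were compared and 21 reached that p, with an adjusted p of 0.138 for each. An adjusted p cannot be under 0.1 here, so no pair could have passed. This test therefore cannot decide whether subunits differed. The DMSO means of Idh3b (8.82) and Idh3g (10.74) lie on either side of that of Idh3a (9.09). With the level trend removed, Idh3a shifted by -2.40 against Idh3b and by -2.83 against Idh3g. The shift of Idh3b minus Idh3g went from 0.58 to -0.43. The part of the level trend in these shifts was not tested.

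**Figure D3:**
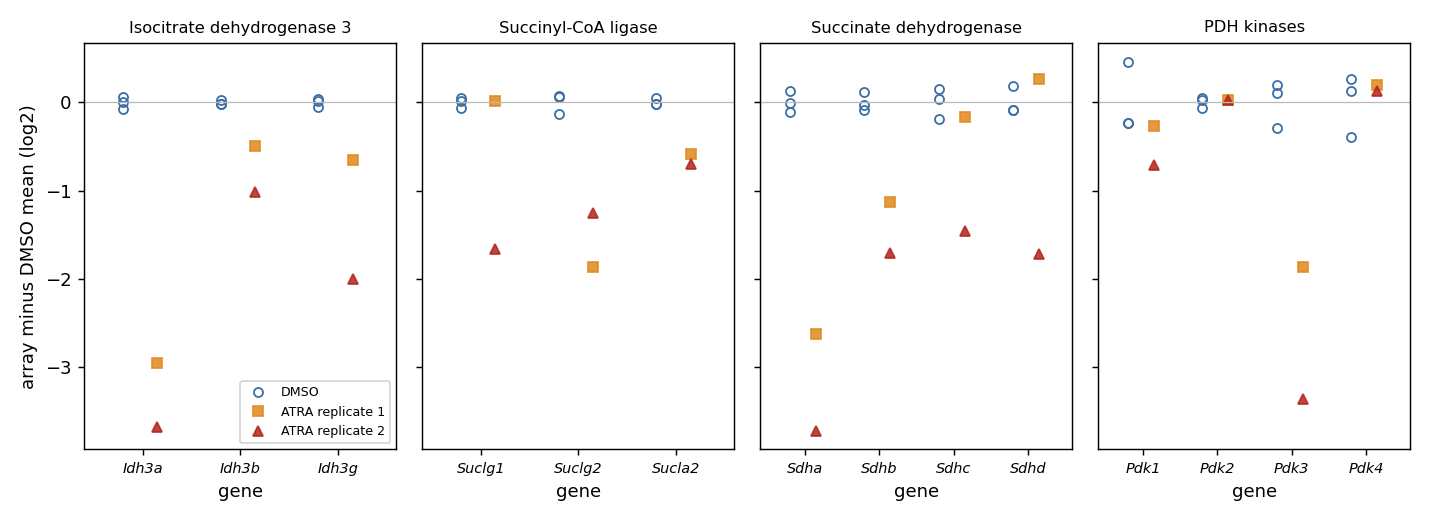
Each array minus the DMSO mean (log2) for the genes of isocitrate dehydrogenase 3, succinyl-CoA ligase, succinate dehydrogenase and the pyruvate dehydrogenase (PDH) kinases. Open circles are DMSO arrays, squares ATRA replicate 1 and triangles ATRA replicate 2. Idh3a (-2.96 and -3.68), Sdha (-2.62 and -3.72) and Pdk3 (-1.87 and -3.36) lie lowest within their sets, while Pdk2 and Pdk4 stay near 0.

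The oxoglutarate dehydrogenase complex converts oxoglutarate, the product of both isocitrate and glutamate oxidation, into succinyl-CoA. Of its 3 genes, 2 fell and 1 did not pass. Dlst, the succinyltransferase core, was at 8.94, 9.01 and 9.10 in DMSO and at 7.34 and 6.00 in ATRA, and fell by 2.35 (SE 0.42, adjusted p = 0.0275). Dld, the dihydrolipoyl dehydrogenase shared with the pyruvate complex, went from 8.06, 7.85 and 8.11 to 6.73 and 6.22, and fell by 1.54 (SE 0.21, adjusted p = 0.0149). Ogdh, the dehydrogenase subunit itself, was at 11.10, 11.05 and 11.15 in DMSO and at 9.28 and 6.88 in ATRA. It had the widest gap between the ATRA arrays of the 3, and its difference of -3.02 (SE 0.74, adjusted p = 0.0518) missed the threshold. Ogdh passed with arrays centred on their median (adjusted p = 0.0343) and with dim features left out (adjusted p = 0.0401). All 3 were below their level curve in both ATRA arrays, by -0.66 for Dlst (adjusted p = 0.103), -0.51 for Dld (adjusted p = 0.124) and -0.28 for Ogdh (adjusted p = 0.31), and none passed there. Ogdh differed by -1.82 and -4.22 in ATRA replicates 1 and 2, and the median gene with a DMSO mean of 11 to 12 by -1.07 and -3.55. The curve was lower, at -1.66 and -3.82 for a DMSO mean of 11.1, so the distance of Ogdh depends on the reference. After cyclic loess normalization all 3 genes were called lower (adjusted p = 0.0291, 0.0258 and 0.0168), among 9 of the 35 genes.

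Succinyl-CoA ligase makes GTP or ATP, depending on which beta subunit joins the shared alpha subunit. Of its 3 genes, 2 fell and 1 did not pass. Suclg1, the shared alpha subunit, was at 9.76, 9.71 and 9.64 in DMSO and at 9.71 and 8.04 in ATRA. ATRA replicate 1 lay among the DMSO arrays and only replicate 2 was lower, so the groups overlapped (difference -0.82, SE 0.52, adjusted p = 0.261). Against genes of its level Suclg1 was higher by 1.25 (SE 0.15, adjusted p = 0.027), by 1.39 in replicate 1 and 1.10 in replicate 2, and after cyclic loess normalization by 0.89 (adjusted p = 0.0198). Suclg2, the GTP-forming beta subunit, fell by 1.56 (SE 0.22, adjusted p = 0.0169), from 8.51, 8.31 and 8.52 to 6.59 and 7.19. A second, dim feature of Suclg2 differed by 0.04, and the mean of both features did not pass (-0.76, adjusted p = 0.0721). Sucla2, the ATP-forming beta subunit, fell by 0.64 (SE 0.11, adjusted p = 0.026), from 7.52, 7.45 and 7.45 to 6.88 and 6.77. Once the trend was removed, Suclg2 and Sucla2 were at -0.23 and -0.02 and did not pass (adjusted p = 0.763 and 0.93).

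Succinate dehydrogenase belongs both to the cycle and to the respiratory chain, as complex II. Of its 4 genes, 2 fell and 2 did not pass. Sdha, the flavoprotein that oxidises succinate, was at 10.65, 10.51 and 10.41 in DMSO and at 7.90 and 6.80 in ATRA, and fell by 3.17 (SE 0.36, adjusted p = 0.0109), 9.01-fold. Sdhb, the iron-sulfur subunit, fell by 1.42 (SE 0.21, adjusted p = 0.0188), from 9.07, 9.02 and 9.21 to 7.97 and 7.40. The membrane anchors Sdhc and Sdhd overlapped with DMSO. Sdhc was at 7.56, 7.22 and 7.44 and then at 7.24 and 5.95 (difference -0.81, SE 0.42, adjusted p = 0.212). Sdhd was at 8.58, 8.86 and 8.58 and then at 8.94 and 6.95 (difference -0.73, SE 0.62, adjusted p = 0.368), so the ATRA arrays lay on either side of DMSO. Sdha minus Sdhd within an array was 1.66 to 2.07 in DMSO and -1.03 and -0.15 in ATRA. That shift of -2.44 reached the exact permutation p of 0.1, the smallest possible, and was -1.45 with the level trend removed. Sdha minus Sdhc shifted by -2.36 at the same p, but by only -0.46 with the level trend removed. As 21 of the 29 pairs reached that p, it does not set these pairs apart. Against genes of their level none of the 4 passed, with Sdha at -0.70 (adjusted p = 0.184), Sdhb at 0.32, Sdhc at -0.24 and Sdhd at 0.75.

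Fumarase and the malate dehydrogenases close the cycle, and 0 of these 3 genes passed, although both ATRA values were below DMSO in each. Fh1, the fumarase, was at 9.04, 8.92 and 8.92 in DMSO and at 8.45 and 6.04 in ATRA (difference -1.72, SE 0.74, adjusted p = 0.158). Mdh2, the mitochondrial malate dehydrogenase, was at 10.93, 10.79 and 10.83 and then at 9.85 and 7.64 (difference -2.10, SE 0.68, adjusted p = 0.0924). Mdh1, its cytosolic partner in the malate-aspartate shuttle, was at 9.11, 9.36 and 9.11 and then at 9.07 and 6.93 (difference -1.19, SE 0.66, adjusted p = 0.233). In these genes ATRA replicate 2 carried most of the difference. After removal of the level trend, Mdh1 and Mdh2 stood above 0 (0.60 and 0.52) and Fh1 at -0.06, none past the threshold.

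Mpc1, the partner of Mpc2 in the carrier that brings pyruvate into the mitochondrion, had the largest difference of the 35 genes. It was at 8.73, 8.60 and 8.79 in DMSO and at 6.01 and 4.50 in ATRA. Mpc1 fell by 3.45 (SE 0.47, adjusted p = 0.0156), 10.9-fold, and by 1.95 with the level trend removed (SE 0.23, adjusted p = 0.0257). A second feature that names Mpc1 did not show this. It stood at 7.26 in all 3 DMSO arrays and in ATRA replicate 1 and at 7.48 in ATRA replicate 2. The 2 features had nearly the same mean over the 5 arrays (7.33 and 7.31), so the rule that picks the brighter decided which was read, and their mean gave -1.67 (adjusted p = 0.015).

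The pyruvate dehydrogenase complex turns pyruvate into acetyl-CoA. Of its 4 genes, 2 fell and 2 did not pass. Pdhb, the beta subunit of the decarboxylase, was at 9.37, 9.23 and 9.31 in DMSO and at 8.22 and 7.20 in ATRA, and fell by 1.60 (SE 0.33, adjusted p = 0.0368). Pdhx, which binds the shared dihydrolipoyl dehydrogenase into the complex, fell by 0.96 (SE 0.20, adjusted p = 0.0361), from 7.14, 7.24 and 7.07 to 6.45 and 5.93. Pdha1, the alpha subunit that the kinases phosphorylate, was lower in both ATRA arrays (8.11, 8.05 and 8.05, then 7.81 and 7.19) and did not pass (-0.58, adjusted p = 0.124). Dlat, the acetyltransferase core, overlapped with DMSO (7.89, 7.57 and 7.57, then 7.32 and 7.57) and differed by -0.23 (adjusted p = 0.312). Relative to their level curve, Pdhx was at -0.58 and the other 3 between 0.26 and 0.55, and none passed.

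The kinases that shut the complex, and the phosphatase that reopens it, held 1 fall among 5 genes. Pdk3 was at 10.19, 9.79 and 10.28 in DMSO and at 8.22 and 6.72 in ATRA, and fell by 2.61 (SE 0.49, adjusted p = 0.0302), 6.12-fold. Relative to its level curve it was at -0.35 (adjusted p = 0.326). After cyclic loess normalization Pdk3 was called lower (-1.01, adjusted p = 0.0344). Pdk2 and Pdk4, the kinases most tied to the glycolytic state of HSCs, did not pass, and their ATRA values lay within the DMSO range. Pdk2 was at 6.84, 6.95 and 6.92 in DMSO and at 6.92 in both ATRA arrays (difference 0.02, SE 0.11, adjusted p = 0.884). Pdk4 was at 6.25, 6.39 and 5.73 and then at 6.31 and 6.25 (difference 0.16, SE 0.24, adjusted p = 0.592). These were the only differences of the 35 above 0, and both turned below 0 after each array was centred on its median (-0.25 and -0.11). Pdk1, a target of hypoxia signalling, was at 7.08, 6.39 and 6.39 and then at 6.35 and 5.91 (difference -0.49, SE 0.30, adjusted p = 0.249). Pdp1, the phosphatase, was at 8.12, 8.41 and 8.12 and then at 8.06 and 6.35 (difference -1.01, SE 0.54, adjusted p = 0.222). The DMSO means of Pdk1, Pdk2 and Pdk4 were 6.62, 6.90 and 6.12, and the median of the 4333 genes in the class from 6 to 7 differed by only 0.04 and 0.16 in ATRA replicates 1 and 2. Pdk3, at a DMSO mean of 10.08, lay in the class from 10 to 11, where the 466 genes differed by -1.42 and -3.23.

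**Figure D4:**
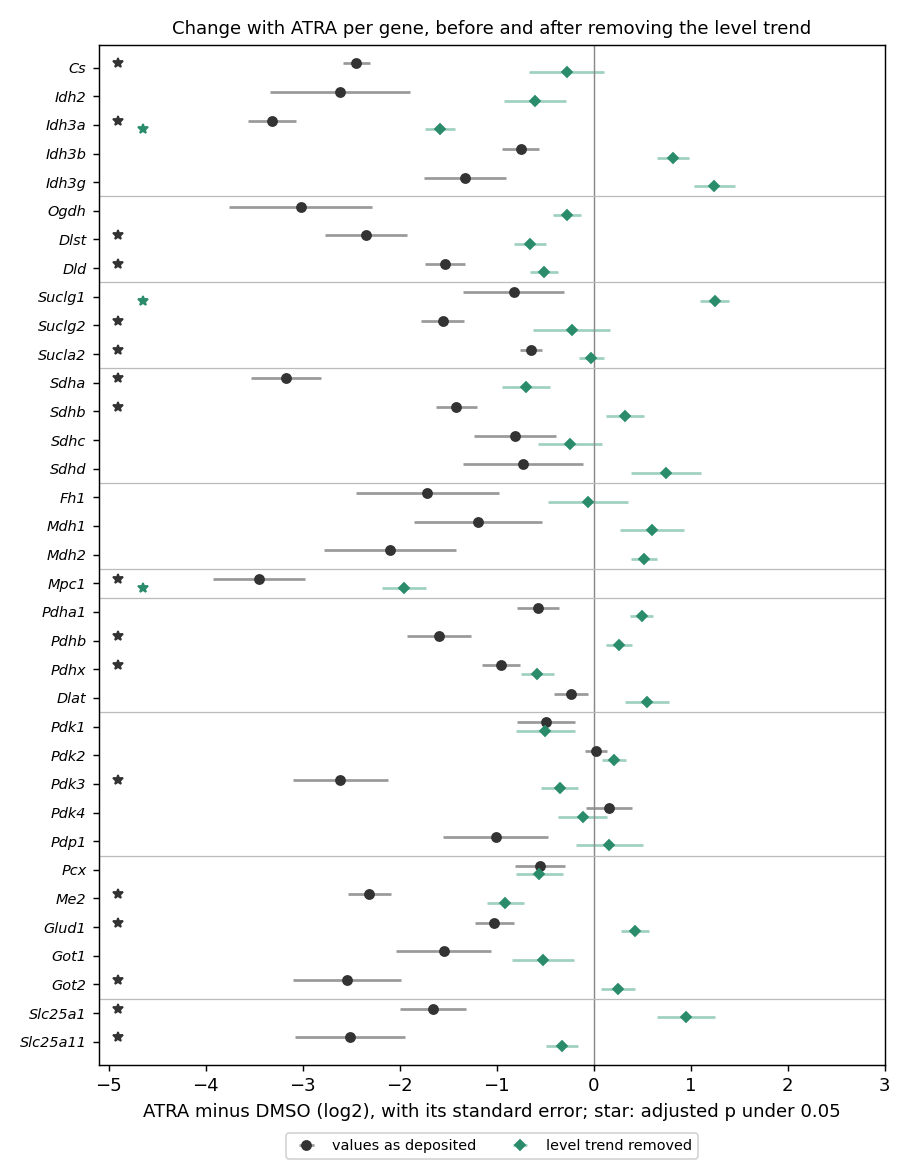
Difference of ATRA from DMSO (log2) for the 35 genes, grouped by role, with its standard error. Dark circles are the values as deposited, green diamonds the fit with the level trend removed, and stars on the left mark an adjusted p under 0.05 in the fit of that colour. There are 17 dark stars, all for lower values, and 3 green ones, for Idh3a, Suclg1 and Mpc1.

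Side routes feed the cycle or draw from it. Of these 5 genes, 3 fell and 2 did not pass. Me2, the mitochondrial malic enzyme that makes pyruvate from malate, was at 8.81, 8.33 and 8.54 in DMSO and at 6.47 and 6.02 in ATRA. It fell by 2.31 (SE 0.22, adjusted p = 0.00876), 4.97-fold, and with the level trend removed it was at -0.91 (adjusted p = 0.0769). After cyclic loess normalization Me2 was called lower (-1.53, adjusted p = 0.0128). Pcx, the pyruvate carboxylase that refills oxaloacetate, overlapped with DMSO (6.68, 6.93 and 6.27, then 5.87 and 6.27) and differed by -0.56 (SE 0.26, adjusted p = 0.179).

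Glutamate reaches the cycle through Glud1 and the aspartate transaminases. Glud1, glutamate dehydrogenase, was at 8.61, 8.62 and 8.67 in DMSO and at 7.89 and 7.32 in ATRA, and fell by 1.02 (SE 0.20, adjusted p = 0.0334). Got2, the mitochondrial transaminase, fell by 2.54 (SE 0.56, adjusted p = 0.0408), from 11.15, 11.27 and 11.23 to 9.57 and 7.78, a call lost with an intensity trend and robust prior (adjusted p = 0.053). A second, dim Got2 feature differed by 0.33, and the mean of both fell by 1.11 (adjusted p = 0.0131). Got1, the cytosolic transaminase, went from 8.07, 7.85 and 8.10 to 7.23 and 5.69 and did not pass (-1.55, SE 0.49, adjusted p = 0.0884). Relative to their level curve, Glud1 (0.43) and Got2 (0.25) stood above 0 and Got1 at -0.53, and none passed. Got2 differed by -1.65 and -3.44 in ATRA replicates 1 and 2. The curve at its level was at -1.68 and -3.90, and the median gene with a DMSO mean of 11 to 12 at -1.07 and -3.55. Whether Got2 stood above genes of its level thus depends on the reference.

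Both carriers listed fell. Among other fits, Slc25a1 lost its call with an intensity trend and robust prior (adjusted p = 0.0712), and Slc25a11 after quantile normalization (adjusted p = 0.105). Quantile normalization removed the calls of 9 of the 35 genes, Slc25a11 among them. Slc25a1, which exports citrate for lipid synthesis, was at 10.71, 10.84 and 10.91 in DMSO and at 9.69 and 8.64 in ATRA, and fell by 1.66 (SE 0.34, adjusted p = 0.0366). Slc25a11, the oxoglutarate-malate carrier, fell by 2.51 (SE 0.56, adjusted p = 0.0434), from 9.85, 10.02 and 9.92 to 8.33 and 6.51. Relative to genes of their level they lay on opposite sides, at 0.95 for Slc25a1 (adjusted p = 0.157) and -0.33 for Slc25a11 (adjusted p = 0.294). After cyclic loess normalization Slc25a11 was called lower (-0.96, adjusted p = 0.0361) and Slc25a1 was not called (0.30, adjusted p = 0.62).

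Of 40 neighbouring genes listed, 36 were measured, of which 13 fell, 0 rose and 23 did not pass (median -0.92). Of all genes, 15.5% were lower and 6.48% higher in that fit. Slc1a5, a glutamine transporter of the cell surface, was at 10.47, 10.53 and 10.39 in DMSO and at 7.65 and 6.35 in ATRA, and fell by 3.46 (SE 0.41, adjusted p = 0.012). Acly, which cleaves exported citrate, fell by 2.68 (adjusted p = 0.0158), and Ldha, a lactate dehydrogenase subunit, by 1.20 (adjusted p = 0.0151). Idh1, the cytosolic isocitrate dehydrogenase, differed by -1.03 (adjusted p = 0.128). The other genes with the smallest p were Aldh18a1, of proline synthesis from glutamate (-1.83), the aspartate-glutamate carrier gene Slc25a12 (-1.59), the cytosolic aconitase gene Aco1 (-2.33), the glutamate carrier gene Slc25a22 (-1.32) and the dicarboxylate carrier gene Slc25a10 (-0.96). With the level trend removed, 0 of the 36 were lower and 1 was higher, and their median was -0.20. Of all genes, 1.01% were lower and 2.28% higher there, so 1 higher gene of 36 is near that share. The 1 higher gene was Sdhaf1, an assembly factor of succinate dehydrogenase, named after its values were seen. It was at 9.49, 9.22 and 9.30 in DMSO and at 9.55 and 8.18 in ATRA, which overlap, and stood 1.40 above its level curve (adjusted p = 0.022).

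In 12 of the 35 genes a deposited value occurred on more than 1 array to 4 decimals. In 8 of them 2 DMSO values were equal, as for Sucla2 and Mdh1, and in 5 an ATRA value equalled a DMSO value, as for Pdk2 and Dlat.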

How the data were processed

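Groups and replicate numbers came from the sample titles. The authors deposited log2 expression values, 1 per array feature and array. RMA, a summary of probes per feature, limma 3.28.20 and oligo 1.36.1 appear in the submitters' processing notes without a stated role. The sources used here give no array annotation and no build. Per the labels' protocols, a small-sample kit was used for the RNA, which was then biotin-labelled.

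The platform table, with its symbols brought up to date by gene identifier, named the features. Of 41345 features, 23521 name 1 gene. Each of 22180 genes was read from its brightest feature by the mean over the 5 arrays, with no filter. ATRA was compared with DMSO by limma 3.58.1 (R 4.3.3; lmFit, eBayes, two-sided, 3 residual degrees of freedom, Benjamini-Hochberg over all genes, threshold 0.05). Every adjusted p comes from it unless a permutation is named. The level trend was a lowess curve (span 0.3). The script was tested on simulated data. Related genes of an enzyme were compared within arrays by an exact permutation test. The number of arrays limits the precision.

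All listed genes were to be named, with 6 fixed neighbours, of which 4 are reported here, and the 6 neighbours of smallest p, which include Slc1a5 of the fixed ones. The members and lists were chosen with earlier results of these data known. Alternatives left out arrays, added a replicate block, and changed the normalization, the filter, the variance model, the features and the threshold.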

Additional observations from a re-analysis of the deposited data

How the results depend on the processing

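Leaving out 1 array gave 0 to 30 falls among the 35 genes (0 without any 1 DMSO array, 25 to 30 without an ATRA array) and medians from -2.00 to -0.77. It gave 0 to 24 falls, 0 to 5 rises and medians from -1.17 to -0.41 among the neighbouring genes, and 0 to 7424 higher and 0 to 6783 lower genes in all. At an unadjusted p under 0.05, 24 of the 35 genes were lower in the fit with all arrays, as were 5103 of all 22180 genes. With the replicate block, 3815 of all genes were lower at that p. With the replicate block, and with array weights, 0 genes were called among the 35, the neighbours and all genes (20 and 24 of the 35 lower at an unadjusted p under 0.05). The labels do not say that equal numbers mark a shared source, and the deviations of same-numbered arrays correlated at 0.13 and 0.10 over genes.

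The falls among the 35 numbered 8 after quantile normalization (median -0.998), 9 after cyclic loess normalization (median -0.50, 1 rise) and 2 with the level trend removed (median -0.11, 1 rise). Quantile normalization removed the calls of Dlst, Suclg2, Sucla2, Sdhb, Pdhb, Pdhx, Pdk3, Glud1 and Slc25a11. Neighbours gave a median of -0.48 after quantile normalization, 6 falls and 1 rise after cyclic loess normalization (median -0.33), and 0 falls and 1 rise with the trend removed (median -0.20). Their median was -1.19 with arrays centred and -0.64 with the features of a gene averaged. With all features tested together, 4 of the falls among the 35 lost their call. Of all genes, 717 were higher with all features tested together and 560 with arrays centred. There were 598 with at least a 2-fold change and 931 with dim features left out. Higher and lower numbered 439 and 1743 after quantile normalization, 771 and 1504 after cyclic loess normalization, and 505 and 223 with the trend removed.

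Signs turned with the trend removed for Idh3b (0.82), Idh3g (1.24), Suclg1 (1.25), Sdhb (0.32), Sdhd (0.75), Mdh1 (0.60), Mdh2 (0.52), Pdha1 (0.49), Pdhb (0.26), Dlat (0.55), Pdk4 (-0.11), Pdp1 (0.16), Glud1 (0.43), Got2 (0.25), Slc25a1 (0.95) and the HSC markers Procr (0.50), Cd34 (1.10) and Hlf (0.28). They turned after cyclic loess normalization for Idh3b (0.62), Idh3g (0.64), Suclg1 (0.89), Sdhd (0.57), Mdh1 (0.27), Pdha1 (0.37), Dlat (0.51), Pdk4 (-0.17), Glud1 (0.18), Slc25a1 (0.30), Procr (0.45) and Cd34 (0.61), and after quantile normalization for Idh3b (0.0017), Dlat (0.34), Pdk4 (-0.063) and Procr (0.18). With arrays centred they turned for Pdk2 (-0.25) and Pdk4 (-0.11), with array weights for Pdk2 (-0.0002), and with the replicate block for Pdk4 (-0.037). Leaving out 1 array gave -0.012 to 0.044 for Pdk2, -0.037 to 0.29 for Pdk4, -1.66 to 0.012 for Suclg1 and -1.72 to 0.26 for Sdhd. The cause was not tested.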
